A study of Mus musculus with 4 samples.

Results

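This account covers the microRNAs (miRNAs) of splenic macrophages in MLL-AF9 leukaemia, set against those of normal splenic macrophages. A miRNA was included when the larger of the 2 spleen libraries held at least 30 reads of it, and 216 of the 847 rows of the deposited table met this rule. The other 631 rows stayed under 30 reads in both, and 93 of them were at 0 in both. The 216 rows held 99.1% of the reads of the leukaemic library and 99.4% of those of the normal library. None of the 216 was at 0 in either spleen library, and none of the 43 rows of predicted miRNAs reached the minimum.

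The study asked how miRNAs of macrophages in acute myeloid leukaemia (AML) differ from those at homeostasis. The AML spleen group is a library of macrophages from the spleen of C57BL/6J mice at day 18 after transfer of GFP+ leukaemia cells, given without irradiation, so the host kept its own haematopoietic cells. The transferred cells carry the fusion oncogene MLL-AF9, and recipients lived for 35 to 40 days. The normal spleen group is a library of splenic macrophages from C57BL/6J mice whose title calls them normal, while the protocol speaks of a time point at 0 days. Both groups share the strain and an age of 6 to 8 weeks. No label states the surface markers of the sort or how many mice were pooled into a library. Bone marrow (BM) macrophages, normal and AML at day 18, gave 1 library each and are quoted only beside spleen values.

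With 1 library per group there is no replicate check, no p-value, and leukaemia cannot be told apart from any other difference between 2 mice, 2 sorts or 2 libraries. Totals were 435492 reads in normal spleen and 180227 in AML spleen, so the AML library is the less precise of the pair. Levels are given as counts per 1000000 reads (CPM) of the library after TMM scaling, which corrects totals for a few very abundant miRNAs. A ratio is AML over normal on the log2 scale, with a 95% exact conditional interval in brackets that covers counting error only. "Higher" and "lower" mean a difference of at least 2-fold whose interval excludes 1. A single read weighs more in the smaller library: 3 reads correspond to 7.65 CPM in the normal and to 15.5 CPM in the AML spleen library. In sorted pools, fewer cells of a kind and less RNA per cell cannot be told apart.

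A miRNA is cut from a hairpin precursor whose 5p and 3p strands can each be loaded into an Argonaute protein. Bases 2 to 8 of the loaded strand, the seed, pair with messenger RNAs, so miRNAs with the same seed form a family with shared targets. Several hairpins are often cut from a common transcript, as in the miR-17 to miR-92a cluster that MYC induces. In macrophages, miR-155 is induced by inflammatory signals, miR-146a dampens NF-kB signalling, and miR-142 and miR-223 mark blood and myeloid cells.

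Of the 216 miRNAs, 54 (25%) were higher and 46 (21.3%) were lower in AML spleen, together 46.3%. The median ratio over all 216 was -0.25, that of the higher ones 2.15 and that of the lower ones -1.55. At 4-fold, 29 miRNAs were past the bound on the higher side and 9 on the lower side. The balance depended on scaling: the split was 51 higher and 68 lower with DESeq2 size factors, which shift every ratio by -0.24, and 64 higher and 36 lower on total counts, which shift every ratio by 0.25. Under these scalings and under totals that leave out the top 10 miRNAs, 51 of the 54 higher and 36 of the 46 lower calls were kept. Among the 216 were 7 pairs of rows with nearly the same counts in all libraries, such as miR-142b and miR-142a-3p, and with each pair counted once 52 were higher and 45 lower. The same rule applied to AML against normal BM called 13.4% of 216 miRNAs higher and 12% lower.

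**Figure D1:**
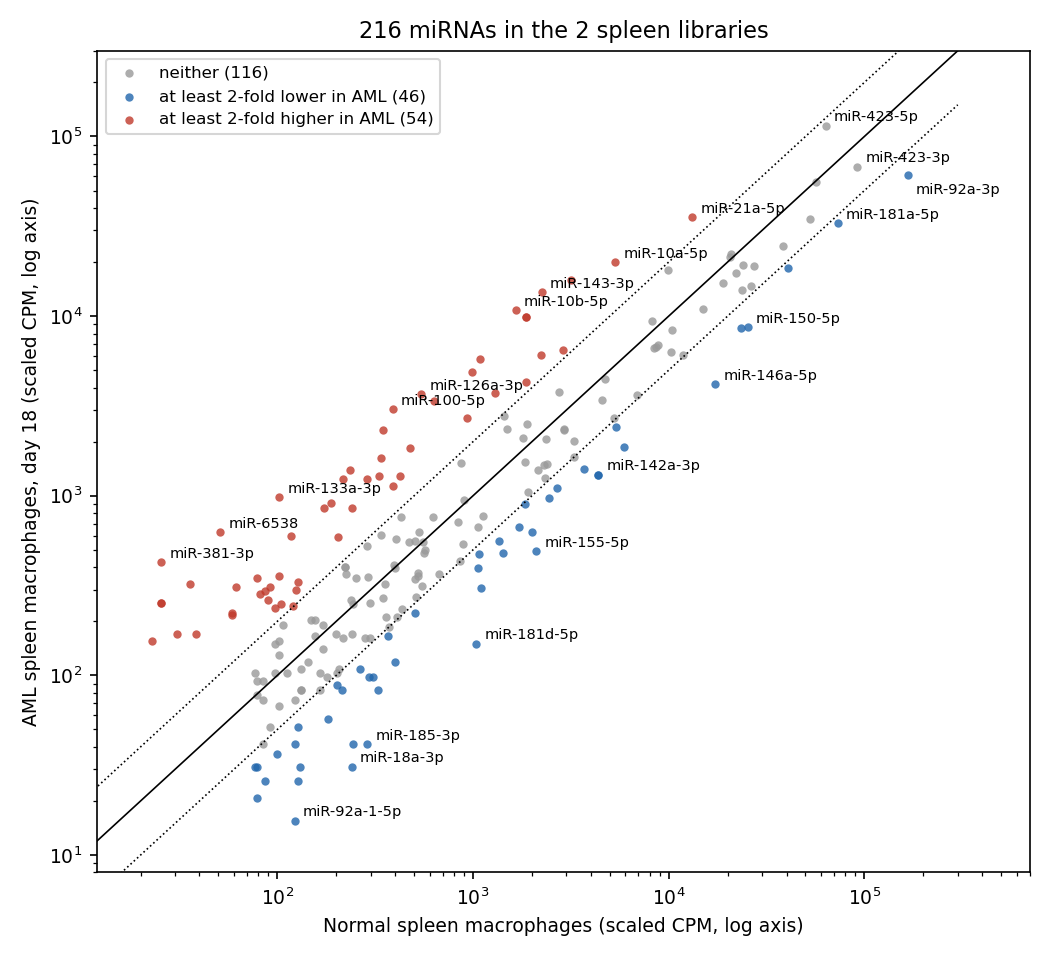
Level of each of 216 miRNAs in normal spleen (x axis) and AML spleen (y axis), both in scaled CPM on log axes, 1 point per miRNA and 1 library per axis, with the solid line at equality and dotted lines at 2-fold. The 54 red points lie above the upper dotted line, the 46 blue points below the lower one, and miR-381-3p and miR-92a-1-5p mark the ends at ratios of 4.06 and -2.98.

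The mature sequences of the families and hairpins that carry these differences are shown first, so that members with a shared seed can be read against each other. They are RefSeq's, from build GRCm38.p6, printed 5′ to 3′ with the seed in capitals. RefSeq held a mature sequence for 183 of the 216 miRNAs, and families are counted over these. Families whose members were all lower, or all but 1, had the seeds ACAUUCA (miR-181) and AUUGCAC (miR-92a, miR-25 and miR-363).
miR-181a-5p: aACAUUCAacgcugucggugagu
miR-181b-5p: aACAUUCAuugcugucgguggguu
miR-181d-5p: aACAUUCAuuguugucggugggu
miR-92a-3p: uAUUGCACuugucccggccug
miR-25-3p: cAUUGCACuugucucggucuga
miR-363-3p: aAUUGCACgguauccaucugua

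Families with all members higher, or all but 1, had the seeds GUAAACA (miR-30), ACCCGUA (miR-99 and miR-100) and AAUACUG (miR-200b, miR-429 and miR-200c). Of the members counted, miR-200c-3p was the exception. The miR-10a and miR-10b strands, related to miR-99 and miR-100 and higher too, share the seed ACCCUGU. The miR-30 count covers miR-30a-5p, miR-30c-5p and miR-30e-5p only. It leaves out miR-30b-5p, which was higher, and miR-30d-5p, which was neither, at -0.46.
miR-30a-5p: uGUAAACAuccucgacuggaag
miR-30c-5p: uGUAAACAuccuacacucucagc
miR-30e-5p: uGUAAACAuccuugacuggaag
miR-99a-5p: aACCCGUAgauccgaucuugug
miR-99b-5p: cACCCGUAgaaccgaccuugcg
miR-100-5p: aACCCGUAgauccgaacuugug
miR-10a-5p: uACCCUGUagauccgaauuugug
miR-10b-5p: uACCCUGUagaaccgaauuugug
miR-200b-3p: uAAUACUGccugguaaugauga
miR-429-3p: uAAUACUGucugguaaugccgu

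Outside these families, the immune miRNAs with the clearest differences and the arms of miR-423, the deepest hairpin with a shifted strand use, and of miR-455 are the following. The largest shift, that of miR-30b, is described by its reads where strand use is compared.
miR-146a-5p: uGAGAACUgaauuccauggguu
miR-155-5p: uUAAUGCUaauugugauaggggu
miR-142a-3p: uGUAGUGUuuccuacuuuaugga
miR-21a-5p: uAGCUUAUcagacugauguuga
miR-423-5p: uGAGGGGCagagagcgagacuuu
miR-423-3p: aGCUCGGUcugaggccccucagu
miR-455-5p: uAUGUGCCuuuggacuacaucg
miR-455-3p: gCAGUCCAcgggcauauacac

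Macrophage and myeloid miRNAs were called in both directions. Of 15 rows of that list, 11 were compared: 3 were higher, 4 lower and 4 neither, the higher ones near the 25% of all 216 and the lower ones against 21.3%, with a median ratio of -0.72 against -0.25 over all 216. The list held 4.03% of the reads in normal spleen (Wilson 95% interval 3.97% to 4.09%) and 5.01% in AML spleen (4.91% to 5.11%). Of these reads miR-21a-5p made up 5158 of 17554 in normal and 6877 of 9025 in AML spleen. The larger share in AML spleen is thus that of miR-21a-5p and not of the list as a whole.

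The 4 lower members were miR-146a-5p, miR-155-5p and both arms of miR-142a. The NF-kB brake miR-146a-5p had 6753 reads in normal and 807 in AML spleen, which is 17223 and 4183 CPM, and it moved from rank 19 to rank 41. The inflammation-induced miR-155-5p, cut from an exon of Mir155hg, had 824 and 95 reads, a level 4.27-fold lower in AML. Both arms of the pan-haematopoietic miR-142a, from an intron of Mir142hg, were lower: the 3p arm at 1311 against 4346 CPM, the 5p arm at 1104 against 2670 CPM. In each of these 4 miRNAs the normal spleen library stood highest of all 4 libraries and the AML spleen library second. In BM the same miRNAs were low: miR-142a-3p stood at 149 CPM in normal BM and 606 CPM in AML BM.

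Of the members called neither, miR-146b-5p, which shares the seed GAGAACU with miR-146a-5p, had 347 reads in normal and 104 in AML spleen, a ratio of -0.72, and was highest in AML BM at 1922 CPM. The others were miR-22-3p (-0.71), miR-223-5p (-0.82) and miR-125a-5p (-0.21).

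Higher in AML spleen were miR-21a-5p, let-7e-5p and miR-99b-5p. For miR-21a-5p, a miRNA of inflamed and transformed cells whose hairpin overlaps an exon of Vmp1, there were 5158 reads in normal and 6877 in the smaller AML library, or 13155 and 35644 CPM. It moved from rank 21 to rank 5, and stood at 38799 CPM in normal BM and 23670 CPM in AML BM. The let-7e and miR-125a hairpins lie together in the Spaca6 gene (chr17:17830352-17830879, plus strand), yet let-7e-5p was 2.60-fold higher while miR-125a-5p had a ratio of -0.21 [-0.58 to 0.14]. The miR-99b-5p strand lies just upstream of let-7e, at chr17:17830194-17830215 on the plus strand. Like let-7e-5p it was higher, 2.87-fold, from 80 reads in normal and 113 in AML spleen.

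The label macrophage could be read against few miRNAs. The myeloid miR-223 was scarce: miR-223-3p had 28 reads in normal and 4 in AML spleen, and miR-223-5p 36 and 10. The miR-511-5p strand, from the gene of the mannose receptor of tissue macrophages, had 5 and 0 reads, and a count of 0 allows up to 15.5 CPM. By contrast miR-142a-3p, miR-146a-5p and miR-21a-5p were abundant in both. Small RNA data hold none of the protein-coding markers of macrophages, so the sort itself was not checked.

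Lymphocyte miRNAs were lower in AML spleen in 5 of 7 compared and higher in 0, against 21.3% and 25% of all 216, with a median ratio of -1.40. Their summed share of reads was 9.89% in normal spleen (9.80% to 9.98%) and 5.38% in AML spleen (5.28% to 5.49%), against 1.91% in normal and 4.67% in AML BM. The B and T cell miRNA miR-150-5p had 9910 reads in normal and 1676 in AML spleen and stood at ranks 11 and 27 of these libraries. The seed family of miR-181 was lower throughout: miR-181a-5p stood at 73049 and 33057 CPM, miR-181b-5p at 3711 and 1410 CPM, and miR-181d-5p at 1033 and 150 CPM in normal and AML spleen. Their ratios ran from -1.14 to -2.78, and that of miR-181a-5p was -0.89 on total counts, short of 2-fold. For miR-342-3p, from an intron of Evl, there were 785 reads in normal and 121 in AML spleen. The 2 members called neither were the opposite arms of hairpins named here, with ratios above 0. They were miR-342-5p (1079 and 732 reads, 0.46) and miR-150-3p (742 and 481 reads, 0.40). The part of lymphocytes in these miRNA differences was not tested.

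The miR-17 to miR-92a cluster and its paralogs had 9 of 13 listed and compared members lower and 0 higher, against 21.3% and 25% of all 216, with a median ratio of -1.36. Their summed share was 16.2% of the reads in normal spleen (16.1% to 16.3%) and 7.19% in AML spleen (7.07% to 7.31%), and 8.34% and 11.1% in normal and AML BM. These miRNAs promote proliferation and dampen apoptosis. Most of the share was miR-92a-3p, which stood at rank 1 in normal spleen, with 65229 reads, and at rank 3 in AML spleen, with 11737 reads.

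The cluster's transcript Mir17hg lies at chr14:115043671-115044506 (plus strand, GRCm38.p6) as far as its compared hairpins reach. Of the 6 miRNAs compared there, 4 were lower and 2 were neither. The largest differences were in strands of low count: miR-92a-1-5p had 48 reads in normal and 3 in AML spleen, miR-18a-3p had 94 and 6, and miR-17-3p had 128 and 16. On the same transcript miR-20a-5p had 93 and 51 reads, a ratio of 0.16 [-0.37 to 0.66]. So miRNAs of this transcript covered a range of ratios from -2.98 to 0.16.

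The paralogous cluster in the Mcm7 gene (chr5:138165321-138165818, minus strand) had 3 of 5 lower: miR-25-5p (-1.36), miR-106b-3p (-1.33) and miR-25-3p (-1.16). That of miR-25-3p was -0.91 on total counts. Its other members miR-93-5p and miR-106b-5p stood at -0.90 and 0.38. On the X chromosome, miR-20b-5p had 31 reads in normal and 4 in AML spleen, and miR-363-3p had 48 and 8, while miR-92a-2-5p of the same cluster, outside the list counted above, had 67 and 37 and a ratio of 0.17. By seed, the AUUGCAC family had 3 of 4 lower, with miR-92b-3p at -0.68 [-1.48 to 0.06]. The AAAGUGC family of miR-17-5p, miR-20a-5p, miR-20b-5p, miR-93-5p and miR-106b-5p had only miR-20b-5p lower of 5. The pair miR-93-5p and miR-17-5p also passed 2-fold under the DESeq2 scaling, both at -1.14.

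The miR-191 and miR-425 hairpins (chr9:108568319-108568861, plus strand) gave 3 compared miRNAs, all lower: miR-191-5p had 9179 reads in normal and 1647 in AML spleen, miR-425-5p 534 and 108, and miR-425-3p 51 and 6. For miR-26b-5p, in an intron of Ctdsp1, levels were 5886 and 1861 CPM in normal and AML spleen, while its paralog miR-26a-5p stayed at rank 12 in both with a ratio of -0.31. Of 21 metabolic and housekeeping miRNAs compared, 5 were lower and 0 higher, a lower share near the 21.3% of all 216. In the miR-15 and miR-16 list miR-15b-5p (558 and 93 reads) and miR-16-1-3p (50 and 5 reads) were lower, and miR-16-5p (139 and 62 reads) had a ratio of -0.14.

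**Figure D2:**
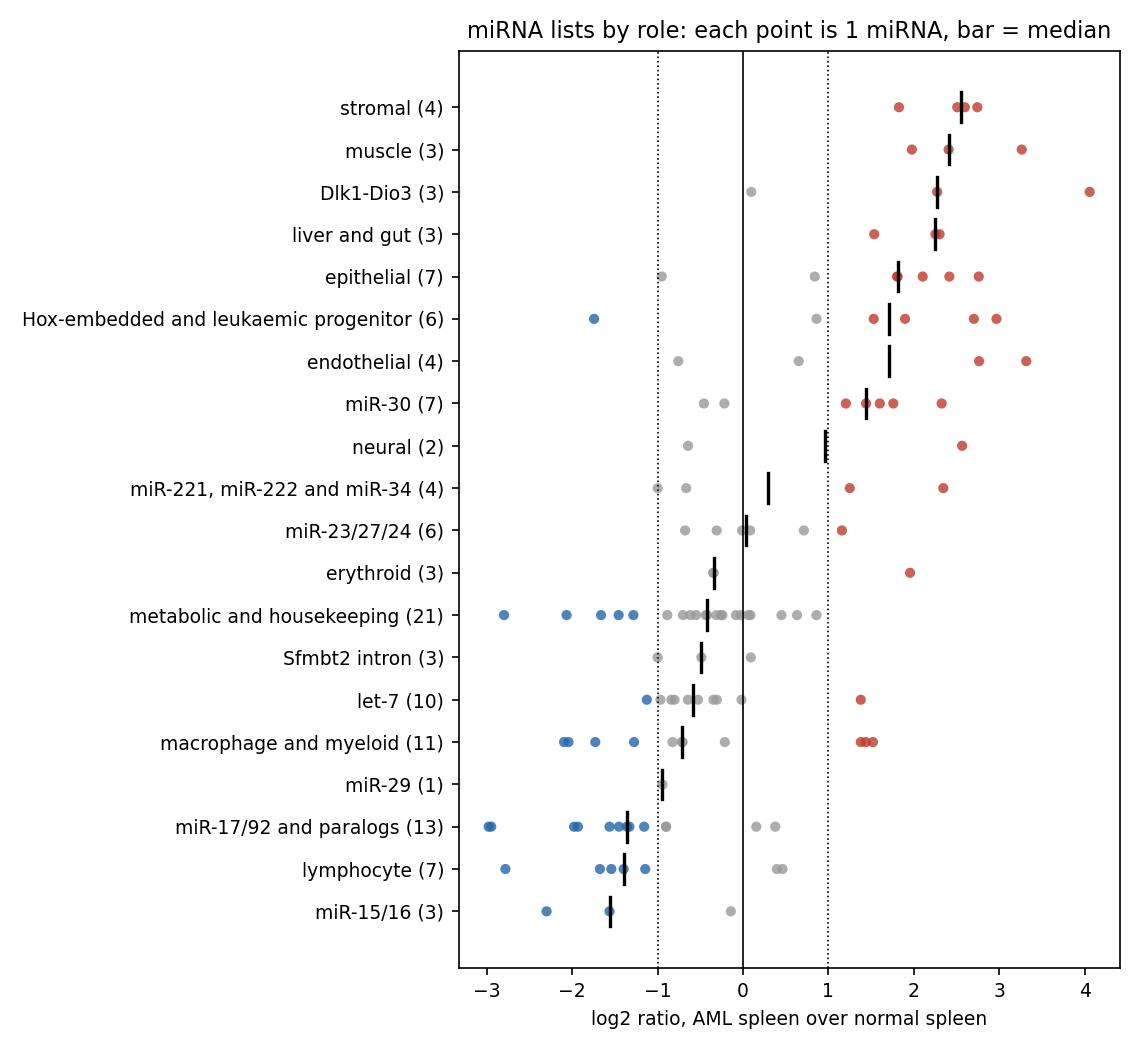
Ratio of AML over normal spleen (x axis, log2) for the compared members of each miRNA list (rows, with the number compared), 1 point per miRNA, red higher, blue lower, grey neither, black bar the list median and dotted lines at 2-fold. Stromal, muscle, liver and gut members all lie right of the 2-fold line, while 9 of 13 members of the miR-17 to miR-92a row and 5 of 7 lymphocyte members lie left of it.

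Higher in AML spleen were miRNAs typical of cells other than macrophages. The stromal list had 4 of 4 compared members higher (median ratio 2.55), the muscle list 3 of 3 (2.41), the liver and gut list 3 of 3 (2.25) and the epithelial list 5 of 7 (1.81), against 25% of all 216. In reads, the stromal list held 0.279% of the normal spleen library (0.264% to 0.296%) and 1.97% of the AML spleen library (1.90% to 2.03%). The muscle list held 0.211% and 1.32%, the liver and gut list 0.206% and 0.994%, and the epithelial list 0.197% and 0.910%. The normal spleen library thus stood low, and both BM libraries held more of these reads: 2.64% and 1.84% stromal and 3.62% and 1.10% muscle in normal and AML BM. The part of other cells or of carried-over RNA in these values was not tested.

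Among the stromal miRNAs, miR-143-3p, abundant in smooth muscle and fibroblasts, had 879 reads in normal and 2616 in AML spleen and stood at ranks 53 and 21. Its cluster partner miR-145a-5p had 85 and 238 reads. From the Dnm3os transcript and a second locus, miR-199a-3p had 136 and 448 reads and miR-199a-5p 94 and 164, levels 6.69-fold and 3.55-fold higher in AML. Below the minimum, miR-214-3p, cut from the same Dnm3os transcript, had 11 and 20 reads. For the endothelial miR-126a-3p, in the Egfl7 gene, there were 213 reads in normal and 712 in AML spleen, or 543 and 3690 CPM. In BM this miRNA stood at 5618 CPM in the normal and 4144 CPM in the AML library. Of the same endothelial list, miR-139-5p had 9245 reads in normal and 2692 in AML spleen, a ratio of -0.76. The ratio of miR-139-3p was 0.65, and both arms were called neither. All members of that list together held 2.31% of the reads in normal and 2.17% in AML spleen.

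The muscle miRNAs miR-1a-3p, miR-133a-3p and miR-206-3p had 735, 40 and 129 reads in normal spleen and 1919, 189 and 250 in AML spleen. The level of miR-133a-3p was 9.60-fold higher, the largest of the 3. The liver miRNA miR-122-5p had 367 and 524 reads, a 2.90-fold higher level. The intestinal and renal miR-192-5p and miR-194-5p, from hairpins that lie together at chr19:6264643-6264932 (plus strand), had nearly equal ratios of 2.30 and 2.25. Another locus of miR-194-5p lies on chromosome 1, so its reads cannot be assigned to this pair alone. The epithelial cluster of miR-200b, miR-200a and miR-429 in Ttll10 (chr4:156053905-156055750, minus strand) was higher in all 3: miR-200a-3p had 425 reads in normal and 1116 in AML spleen, miR-200b-3p 113 and 239, and miR-429-3p 40 and 69. From another locus, miR-200c-3p of the same seed had 161 and 41 reads, a ratio of -0.95 [-1.48 to -0.45].

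The remaining lists had few compared members. Of the endothelial list 2 of 4 were higher, of the neural list 1 of 2, of the erythroid list 1 of 3, of the miR-34 list, which also holds miR-222 and miR-221, 2 of 4, and of the miR-23, miR-27 and miR-24 list 1 of 6, with 0 lower in each, against 25% higher of all 216. With so few members these counts show nothing particular to a list. The miR-23, miR-27 and miR-24 list leaves out miR-23a-5p, which was higher (1.27), with 49 reads in normal and 58 in AML spleen. No compared member of the miR-29 list (1) or of the Sfmbt2 intron list (3) was called.

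**Figure D3:**
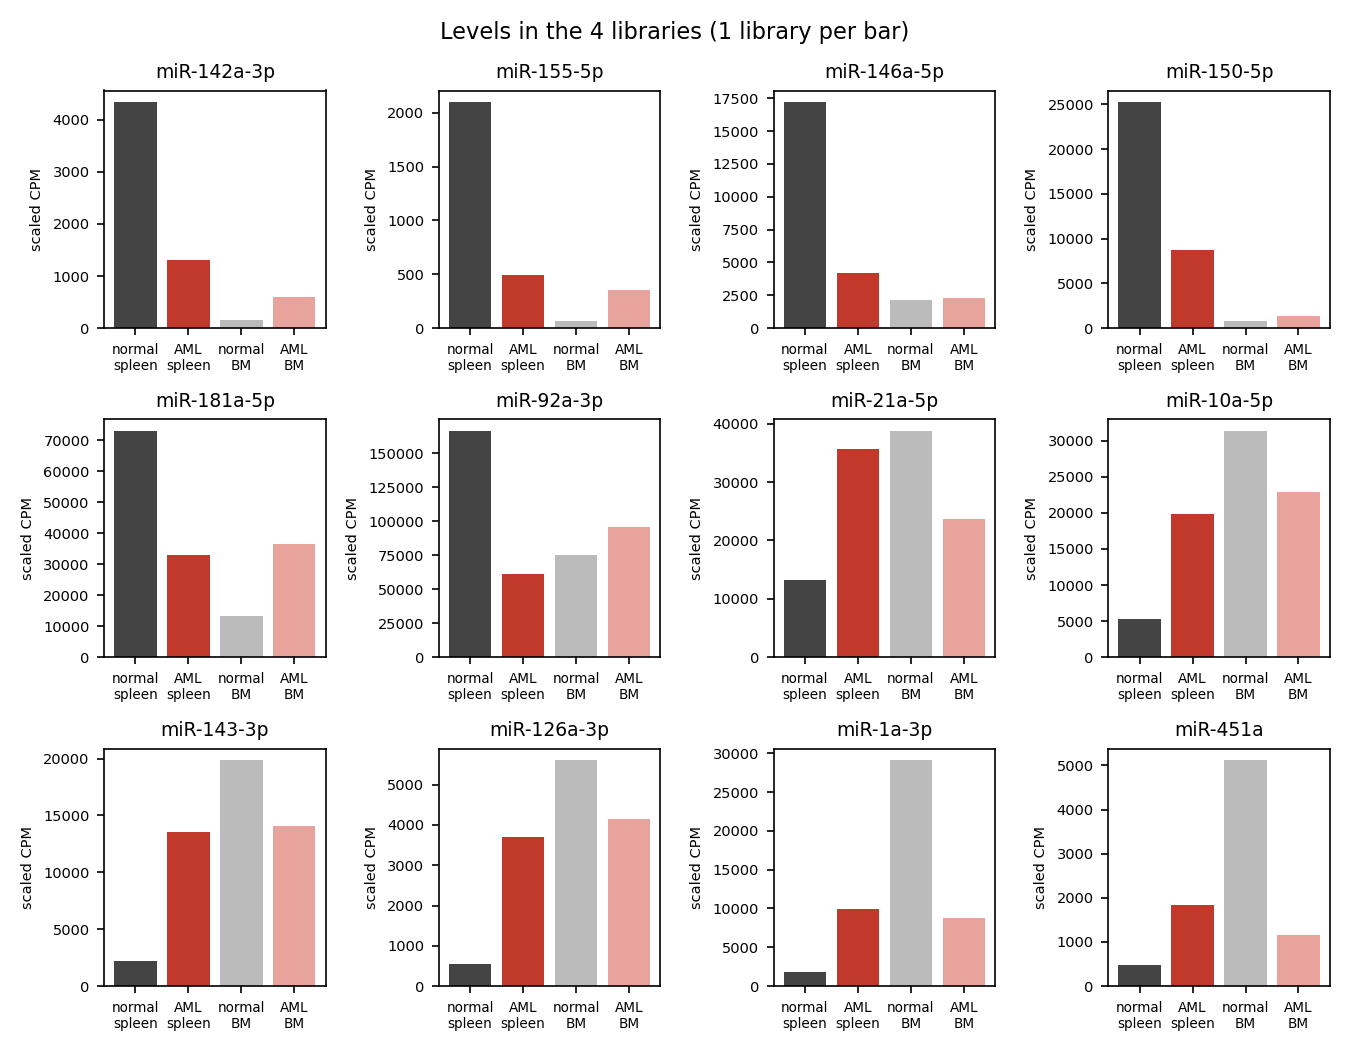
Level in scaled CPM (y axis, from 0) of 12 miRNAs in normal spleen, AML spleen, normal BM and AML BM, 1 library per bar and no error bars since each group has 1 library. For miR-142a-3p, miR-155-5p, miR-146a-5p and miR-150-5p normal spleen is the tallest bar, while for miR-143-3p, miR-126a-3p, miR-10a-5p and miR-451a it is the shortest.

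HOX-embedded miRNAs and their relatives were higher in 4 of 6 compared and lower in 1, against 25% and 21.3% of all 216. This list held 0.82% of the reads in normal and 4.08% in AML spleen. Its share was largest in normal BM, at 5.88%, and was 4.38% in AML BM. The progenitor miRNA miR-10a-5p had 2096 reads in normal and 3843 in AML spleen, moving from rank 33 to rank 11. Its paralog miR-10b-5p, in the Hoxd3 and Hoxd4 locus, stood at 1650 and 10744 CPM. In the ACCCGUA family miR-100-5p had 152 and 585 reads, miR-99a-5p 508 and 722, and miR-99b-5p 80 and 113, ratios of 2.97, 1.53 and 1.52. Against this direction, miR-196b-5p, in the Hoxa9 gene and often abundant in leukaemias with MLL fusions, was lower, with 34 reads in normal and 5 in AML spleen. In BM it had 80 reads in the normal and 196 in the AML library. Also neither higher nor lower was miR-125b-5p, at 0.86 [0.46 to 1.26], a neighbour of these families in clusters of the genome.

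Of the miR-30 list, miRNAs known from many solid tissues, 5 of 7 compared strands were higher and 0 lower, against 25% and 21.3% of all 216, with a median ratio of 1.44. The list leaves out 3 compared strands of these hairpins: miR-30c-2-3p was higher (1.93), miR-30b-3p lower (-1.37) and miR-30c-1-3p neither (-0.75). The most abundant of the higher ones, miR-30a-5p, had 1235 reads in normal and 3046 in AML spleen, and miR-30b-5p had 166 and 248. Members were not alike: miR-30d-5p, the most abundant in normal spleen with 5899 reads, had 2114 in AML spleen and a ratio of -0.46 [-0.53 to -0.39]. The call of miR-30c-5p (1.20) was lost with DESeq2 size factors, at 0.97. In the let-7 list, whose family restrains growth, 1 of 10 was higher (let-7e-5p), against 25% of all 216. Against 21.3% of all 216, 1 was lower (let-7a-5p, 15870 and 3580 reads, at -0.88 and not called on total counts). The let-7 seed family GAGGUAG leaves out let-7d-3p of that list. It was the only one of the 9 seed families with at least 3 members compared that had calls in both directions.

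The imprinted Dlk1-Dio3 region, active in stem cells and muscle, had 28 rows but only 3 compared miRNAs. The highest ratio of all 216 was that of miR-381-3p of this region, with 10 reads in normal and 82 in AML spleen. Beside it miR-127-3p had 74 and 176 reads, while miR-370-3p had 38 and 20 and a ratio of 0.10. All 28 rows of the list, most of them under 30 reads, together held 0.0540% of the normal and 0.208% of the AML spleen library. Second came miR-6538, with 20 and 121 reads and a RefSeq sequence of 94.7% G and C, the highest of the higher group. The erythroid miR-451a had 186 and 355 reads, a 3.88-fold higher level, whereas both arms of miR-486a, also erythroid, stood at -0.35 and -0.34.

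Strand use was compared within each library, where the ratio of the 5p to the 3p arm does not depend on scaling. Both arms reached 30 reads in the larger library for 37 hairpins, and in 17 of these (45.9%) the balance differed at least 2-fold between the libraries with an interval that excluded 1. In 12 it lay more toward 5p in AML spleen and in 5 more toward 3p. Only 6 hairpins had both arms called the same way, and 15 had 1 arm called and the other not. The read counts of an arm are small in many of them, and 7 of 16 hairpins passed when both arms had to reach 100 reads.

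The deepest case was miR-423, whose arms ranked among the 4 most abundant miRNAs of both libraries. Normal spleen held 24826 reads of miR-423-5p and 36038 of miR-423-3p, AML spleen 22182 and 13123. The 5p share was thus 40.8% in normal (40.4% to 41.2%) and 62.8% in AML spleen (62.3% to 63.3%). In BM the order was the opposite, with 67.5% in normal and 48.4% in AML. Neither arm was called by itself, at 0.86 and -0.43, and miR-423-5p passed 2-fold on total counts at 1.11.

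The widest shifts toward 5p were in miR-30b and miR-455. For miR-455 the 3p arm dominated in normal spleen (414 reads against 68 of 5p), while AML spleen had 164 reads of 5p and 129 of 3p, a balance 7.74-fold different. Normal BM held 240 reads of 5p and 5 of 3p. In miR-30b the 5p arm was higher and the 3p arm lower, the only hairpin with opposite calls, and its 5p share was 66.4% in normal and 93.9% in AML spleen from 84 and 16 reads of the 3p arm.

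In miR-342 and miR-185 the 3p arm was the one lower in AML spleen. For miR-342 the 5p share was 57.9% in normal (55.6% to 60.1%) and 85.8% in AML spleen (83.3% to 88.0%). The 3p arm of miR-185, in an intron of Tango2, had 113 reads in normal and 8 in AML spleen, while the 5p arm had 329 and 137 and a ratio of -0.24 [-0.54 to 0.05].

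The opposite held for miR-150 and miR-139, where the lead of the 5p arm was smaller in AML spleen. The 5p share of miR-150 was 93.0% in normal (92.5% to 93.5%) and 77.7% in AML spleen (75.9% to 79.4%), because miR-150-5p was lower while miR-150-3p had 742 and 481 reads and a ratio of 0.40. That of miR-139 was 94.1% in normal and 85.7% in AML spleen. In miR-674 and miR-1934 the larger arm was 5p in normal and 3p in AML spleen, on few reads: the larger arm of miR-674 had 95 and 25 reads and that of miR-1934 had 70 and 46. Balance was kept in miR-25 (5p share 24.2% and 21.8%) and miR-361 (12.8% and 13.3%), whose intervals included no change.

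**Figure D4:**
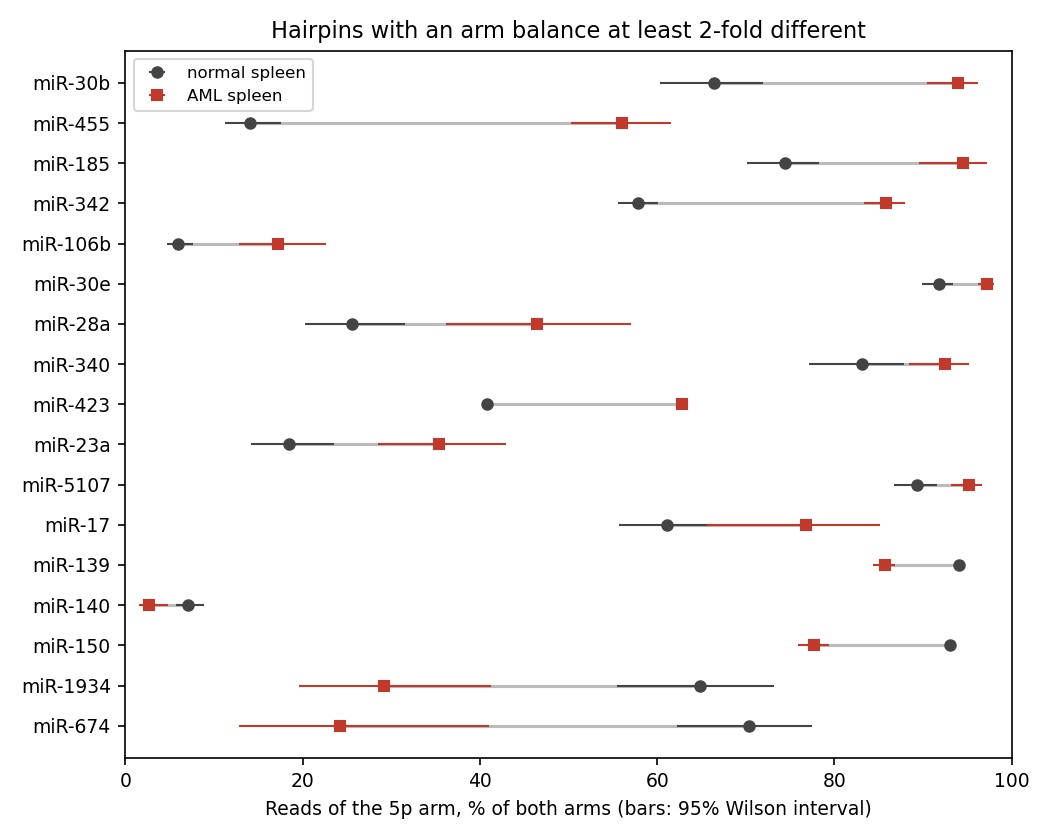
Share of 5p reads among the reads of both arms (x axis, percent) in normal spleen (dark circles) and AML spleen (red squares) for the 17 hairpins whose arm balance differed at least 2-fold, with 95% Wilson intervals that cover counting error only. In the upper 12 rows the red square lies to the right (miR-455 from 14.1% to 56.0%), in the lower 5 to the left (miR-150 from 93.0% to 77.7%).

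Position on the genome gave groups of neighbouring hairpins on the same strand. Whether the hairpins of a group share a transcript was not tested. RefSeq placed 159 hairpins of the compared miRNAs, of which 117 lay in a GENCODE M21 gene on the same strand (71 in an intron and 46 overlapping an exon) and 42 in none. There were 21 groups of at least 2 such hairpins within 10000 bases of each other. All compared miRNAs were higher in 2 groups, lower in 3, and neither in 4, and in 0 groups did calls run in both directions. These counts cover placed hairpins only. Those of miR-30b, whose arms were called in opposite directions, and of miR-30d, miR-99b and miR-455 were not placed and enter no group. The 3 lower groups were those of miR-191 and miR-425 and the pair of loci of miR-181a and miR-181b, which yield the same mature miRNAs and so are not separate evidence. The remaining 12 groups mixed called and uncalled miRNAs, such as the let-7c-5p and miR-99a-5p hairpins on chromosome 16 (-0.84 and 1.53), of which let-7c-5p is also made elsewhere.

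Abundance made little difference to how often a miRNA was called higher, except at the top. Of the 84 miRNAs with a mean of under 300 CPM over the spleen libraries 25% were higher, of 53 between 300 and 1000 CPM 26.4%, of 56 between 1000 and 10000 CPM 30.4%, and of 23 above that 8.70%. Lower calls made up 26.2%, 13.2%, 19.6% and 26.1% of the same groups. The typical width of the interval shrank from 1.55 to 0.11 on the log2 scale from the first to the last group, so only large ratios can be called among the scarce miRNAs. The first 10 ranks held 57.4% of the reads in normal (57.2% to 57.5%) and 50.5% in AML spleen (50.2% to 50.7%).

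The 15 most abundant miRNAs of each library had 10 in common. Those only in the AML spleen set were miR-744-5p, miR-151-3p, miR-21a-5p, miR-148a-3p and miR-10a-5p, of which miR-21a-5p and miR-10a-5p were called higher. Only in the normal spleen set were let-7c-5p, miR-150-5p, miR-139-5p, miR-191-5p and let-7g-5p, of which miR-150-5p and miR-191-5p were called lower. Levels of let-7d-3p (56709 and 56054 CPM) and miR-151-3p (20536 and 21432 CPM) differed little in scaled CPM between normal and AML spleen.

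The first base of the mature sequence, which Argonaute proteins bind and which is most often U, differed between the groups of calls. It was U in 25 of 43 higher miRNAs with a sequence (58.1%), 12 of 42 lower ones (28.6%) and 50 of 98 that were neither (51.0%). The lower ones instead began with A in 19 cases. Median G and C content was 45.5% in the higher, 51.1% in the lower and 50% in the other miRNAs, and median length was 22 bases in each. Across the 183 miRNAs, ratio and G and C content had Pearson's r of -0.15 and Spearman's rho of -0.18, and without the lists of other cells and tissues r was -0.06 over 159. These are descriptions of miRNAs of 2 libraries, and miRNAs of a family share much of their sequence.

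Near the bounds, miR-504-5p, miR-615-3p and miR-96-5p had 30 reads in the larger library and were compared, and miR-874-3p (29), miR-223-3p (28) and miR-29b-3p (28) were not. Just past 2-fold were miR-3473b (1.02), miR-27b-3p (1.16) and miR-30c-5p (1.20) on the higher and miR-532-5p (-1.04), let-7a-5p (-1.13) and miR-181a-5p (-1.14) on the lower side. Just short of it were miR-5107-5p (0.95), miR-148a-3p (0.87) and miR-125b-5p (0.86) on the higher side. On the lower side these were miR-669a-3p (65 reads in normal and 16 in AML spleen), miR-221-3p (1291 and 318) and miR-1306-5p (146 and 36).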

How the data were processed

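Per the labels' protocols, sorted macrophages gave total RNA (RNeasy Mini columns), from which miRNA libraries were made for an Illumina HiSeq. For the aligner, counter, build and annotation: not given in the sources used here. Read counts per miRNA, unscaled per the file headers, were deposited by the authors with TPM values, which equal count over library total times 1000000, with no length term. Only the counts were analysed.

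Libraries were scaled with TMM factors over all 4 libraries (edgeR 4.0.16, R 4.3.3): 0.900 in normal and 1.07 in AML spleen. Intervals were computed in Python 3.11.15 with scipy 1.17.1. They were run on simulated counts that hold counting error only, the error they assume. That run checks the code and cannot show how well the intervals suit these libraries. Arm balance used the exact conditional interval of the odds ratio, and shares used Wilson intervals. No label mentions molecular identifiers, so intervals and limits of a count of 0 (3 reads) cover counting error only.

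Rows whose counts match another row in all 4 libraries within 3% or 2 reads, at 100 reads or more over them, gave 7 pairs, all among the 216. They are miR-126b-3p with miR-126a-5p, miR-142b with miR-142a-3p, miR-1b-5p with miR-1a-3p, miR-3074-2-3p with miR-24-2-5p, miR-3074-5p with miR-24-3p, miR-374c-3p with miR-374b-5p, and miR-486b-3p with miR-486a-3p.

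Members and lists were chosen with earlier results of these data known. Named were the 15 most abundant miRNAs of each library, the 12 highest and 12 lowest ratios called with at least 100 reads, list members, hairpins with a shifted arm balance, seed families of at least 3, and the 3 nearest each bound. Alternatives were DESeq2 1.42.0 size factors, total counts, totals without the 10 most abundant miRNAs, TMM over the spleen libraries alone, minimums of 1 and 100 reads, and repeated rows counted once.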

Additional observations from a re-analysis of the deposited data

Results flagged for a closer look

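For 20 miRNAs the AML and normal libraries of the spleen differed at least 2-fold in 1 direction and those of the BM at least 2-fold in the other. Of the 54 miRNAs higher in the spleen, 1 was higher, 9 lower and 39 neither in BM, and 5 were not compared there. Of the 46 lower in the spleen, 11 were higher, 0 lower and 25 neither in BM, and 10 were not compared. Over all 216 miRNAs compared in BM, 13.4% were higher and 12% lower. Each tissue gave 1 library per state, so the difference between tissues was not tested.

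Lower in AML spleen and higher in AML BM were 11. Their log2 ratios in the spleen and the BM were -2.98 and 1.56 for miR-92a-1-5p, -2.80 and 3.77 for miR-185-3p, -2.09 and 2.40 for miR-155-5p, and -1.73 and 2.02 for miR-142a-3p and for its repeat row miR-142b. They were -1.56 and 1.36 for miR-15b-5p, -1.45 and 1.33 for miR-664-5p, -1.40 and 1.02 for miR-181b-5p, -1.30 and 1.65 for miR-1306-3p, -1.29 and 1.46 for miR-5132-5p, and -1.14 and 1.47 for miR-181a-5p. Several of these ratios rest on few reads. The BM ratio of miR-185-3p [1.82 to 6.87] came from 2 reads in normal and 37 in AML BM. In AML spleen miR-92a-1-5p had 3 reads. In normal BM miR-664-5p had 10 reads, miR-1306-3p 12 and miR-5132-5p 11.

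The reverse, higher in the spleen and lower in the BM, held for 9. The spleen and BM ratios were 1.54 and -1.17 for the liver miRNA miR-122-5p, 1.83 and -1.15 for the stromal miR-199a-5p, 1.96 and -2.15 for the erythroid miR-451a, and 1.98 and -1.93 for the muscle miRNA miR-206-3p. They were 2.41 and -1.74 for miR-1a-3p and 2.41 and -1.73 for its repeat row miR-1b-5p, 2.57 and -1.19 for the neural miR-9-5p, 3.26 and -1.81 for miR-133a-3p, and 3.62 and -1.61 for miR-6538.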

How the results depend on the processing

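The 3 alternative scalings shift every ratio by a constant: -0.24 (DESeq2), 0.25 (total counts) and 0.08 (totals without the top 10). A call needs a difference of at least 2-fold, so none could change direction under them. TMM over the spleen libraries alone shifted ratios by 0.01 and left all 100 calls as they were. With DESeq2 size factors 3 calls ended and 22 began, all lower. On total counts 10 lower calls ended and 10 higher ones began. On totals without the 10 most abundant miRNAs 3 ended and 1 began. The median ratio of the miR-23, miR-27 and miR-24 list, 0.04, was -0.20 with DESeq2 size factors. A minimum of 1 read gave 117 higher and 62 lower of 754 rows, and a minimum of 100 reads 33 and 31 of 142. The hairpins with a shifted arm balance numbered 7 of 16 at 100 reads, in place of 17 of 37. Counting repeated rows once gave 52 higher and 45 lower. With 1 library per group no replicate could be left out, and depth limits calls among scarce miRNAs: 30 reads are 76.5 CPM in the normal and 155 CPM in the AML spleen library.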

Other observations

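Of the 216 compared miRNAs, 96 belonged to no list. Of these, 18 were higher and 19 lower in AML spleen, against 25% and 21.3% of all 216. Of those named next, miR-218-5p, miR-881-3p, miR-3470a, miR-3470b, miR-652-3p, miR-501-3p and miR-935 were chosen after their values were seen. Higher were miR-101a-3p, which had 247 reads in normal and 646 in AML spleen, miR-218-5p, from introns of the guidance genes Slit2 and Slit3, with 46 and 115 reads, and miR-881-3p, with 14 and 62. The pair miR-3470a (35 and 51 reads) and miR-3470b (34 and 57 reads) was higher too, and both had few reads in normal BM, 3 and 5. Of the CAGUGCA family, miR-152-3p, in an intron of Copz2, was higher with 31 and 67 reads, while miR-148a-3p and miR-148b-3p stood at 0.87 and 0.84 and passed 2-fold on total counts.

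Lower were miR-130b-5p, with 431 reads in normal and 59 in AML spleen, miR-652-3p with 416 and 76, miR-501-3p with 422 and 92, and miR-350-5p, in an intron of Cep170, with 121 and 19. The call of miR-501-3p was lost on total counts, at -0.92. For miR-935 there were 144 and 32 reads in the spleen, against 4 in normal and 6 in AML BM, and for miR-5107-5p 563 and 537 against 37 and 38. At a ratio of 0.95 the latter was called neither.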
